A study of Mus musculus with 6 samples.

Results

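The genes described here hold cells together or steer them: claudins and other tight junction proteins, keratins, cadherins, protocadherins, connexins, desmosomal proteins, the Spint protease inhibitors, and the guidance ligands and receptors of the semaphorin, Slit and netrin systems. A probe was a member when the platform annotation gave it exactly 1 gene symbol and that symbol belonged to one of 12 such name families. This chose 91 of 11023 genes, measured by 131 of 21888 probes. The names also took in a few genes with other roles, namely Cldnd1 and Cldnd2, Unc50 and Unc5cl. Of a list of 34 genes of interest for this epithelium, 17 were members; the others, among them Cdh1, Epcam, Krt8, Krt18 and Krt19, are not analysed here.

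RNA was compared between the pancreas of embryos homozygous for a Sox4 knockout (Sox4-/-) and that of their wild-type littermates, both at embryonic day 12.5. Each of 6 spotted arrays was a direct comparison of both RNAs, with the wild-type RNA in channel 1 and the knockout RNA in channel 2, and gave a log2 ratio for every probe measured. Per the label of arrays 1 and 2, the tissue was pooled in 2 groups before RNA isolation, so the 6 arrays may be repeats of the same pools. The p-values below then measure only how far arrays differ, which may be technical. No allele other than Sox4 and no agent is named in the labels.

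Ratios are read as knockout over wild type. That direction is likely, from the channel order and the titles, but no source used here names the dyes. If it is wrong, every sign below turns. Each RNA sat in the same channel throughout, so a channel bias of a probe and a difference between the RNAs cannot be told apart. In whole tissue, fewer cells of a type and less RNA per cell cannot be told apart either. Ratios carry no level, so the tissue could not be checked against the expression of its markers.

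Epithelial cells of the early pancreatic bud are joined side to side by several kinds of junction. Claudins and occludin, held by the Tjp scaffold proteins, seal the tight junction; cadherins bind neighbouring cells and connect to actin through catenins; desmosomal cadherins connect through plakophilins and desmoplakin to keratin filaments; and connexins form gap junction channels. Semaphorins signal through plexins, often with a neuropilin as co-receptor, Slits through Robo receptors, and netrins through Dcc and Unc5 receptors. These ligands and receptors are best known for guiding axons and blood vessels.

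Before centring, the medians of the deposited ratios were between -0.006 and 0.203 on the 6 arrays, and 439 to 1654 probes per array had no value. The probes of Sox4 itself, the deleted gene, were at -0.03 ± 0.25 and -0.09 ± 0.13 (n = 6 each; adjusted p = 0.892 and 0.446). No source used here places them relative to the deleted part, and they check neither the direction nor the labels.

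Of the 131 member probes, 125 had a value on at least 4 arrays and were tested. The other 6 were probes of Krt10, Krt32, Cdh8, Robo2, Robo4 and Unc5c. Past an adjusted p of 0.05 (limma) were 9 probes of 9 genes, 7.2% of the members tested, against 5.49% of all 21247 probes. Under 0, which is lower in the RNA labelled knockout, were Nrp1, Dsc2, Krt88, Pcdh9, Ntng2, Cldnd1 and Pcdh17, 7 probes or 5.6%, against 3.53% of all probes. Above 0 were Unc5b and Pkp2, 2 probes or 1.6%, against 1.96% of all probes. Means above 0 were found for 67 members (53.6%), against 53.7% of all probes, and 14 members (11.2%) were above 0 on every array, against 10.2%. The median of the member means was 0.02 and that of all tested probes 0.03. The folds were between 1.29 and 2.87. Without centring on the median, 6 member probes passed above 0 and 4 under 0, and over all probes 849 of 1258 calls were above 0, against 416 of 1166 with it.

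**Figure D1:**
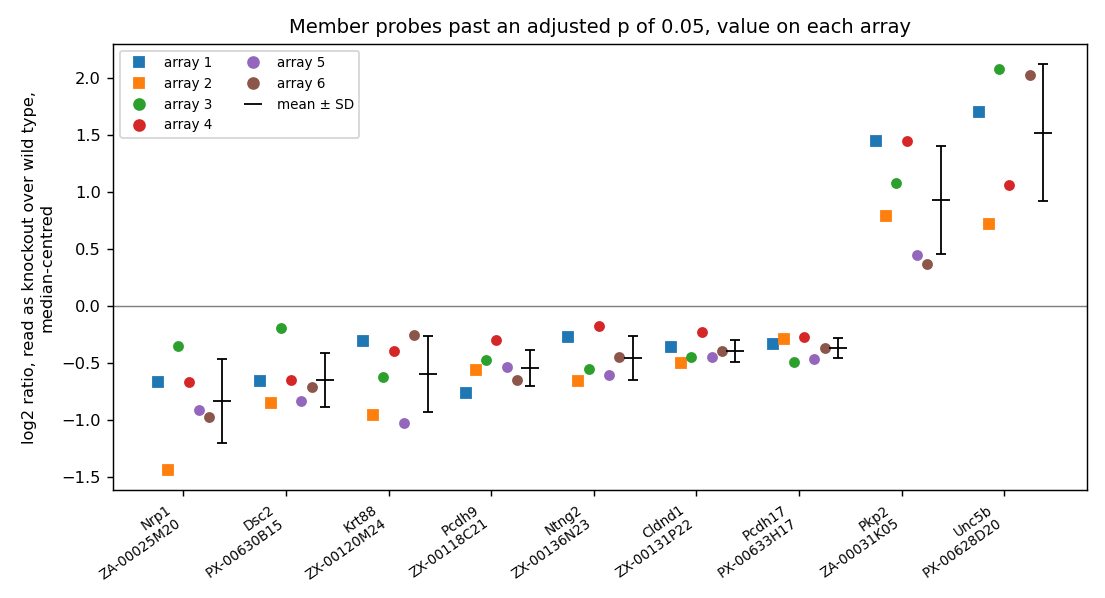
Log2 ratio (vertical axis, knockout over wild type, each array centred on its median) on each of the 6 arrays for the 9 member probes past an adjusted p of 0.05. Squares are arrays 1 and 2, circles arrays 3 to 6, and the black mark with bars is the mean ± SD. All values of the 7 probes on the left lie under 0 and all values of Pkp2 and Unc5b above 0.

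These calls lay close to the threshold, at adjusted p values of 0.0292 to 0.0497. With 1 array left out, they ranged from 0.0369 to 0.116. Without array 2, 6 of the 9 remained (Cldnd1, Dsc2, Nrp1, Pcdh17, Pcdh9 and Unc5b) and 2 others joined, Unc50 and another Nrp1 probe. Without array 3, 1 remained, Dsc2. Without array 1, 4, 5 or 6, 0 member probes passed limma's adjusted threshold, with 38, 34, 35 and 33 at an unadjusted p under 0.05. The calls over all probes fell to 18, 11, 10 and 13 in the same fits. On all arrays, 43 members (34.4%) were at an unadjusted p under 0.05, against 27.6% of all tested probes, the share to set beside each such count below.

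The protocadherins had the lowest median among the families with at least 8 tested probes. They are cadherin relatives found mainly on neurons and on some epithelia and vessels, where they act in cell sorting and contact. Of 8 tested probes, 6 had a mean under 0 and 5 were under 0 on every array. Over all tested probes 12.3% were under 0 on every array, and over all members 16.0%. The median of the protocadherin means was -0.22. Without centring, the Pcdhb14 mean moved to 0.04 and the others under 0 stayed there. These counts describe the family and are not a test of it.

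Pcdh9 was at -0.76, -0.55, -0.47, -0.29, -0.53 and -0.64 on arrays 1 to 6. Array 4 was the nearest to 0 and array 1 the furthest. The mean was -0.54 ± 0.16 (SD, n = 6), a 1.46-fold lower ratio, with an adjusted p of 0.0292. Pcdh17 was at -0.33, -0.29, -0.48, -0.27, -0.46 and -0.36. Its arrays lay within a narrow band, and the mean was -0.37 ± 0.09 (SD, n = 6; adjusted p = 0.0362), 1.29-fold lower. Both are non-clustered protocadherins of the delta group.

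Next to them, Pcdh8 was at -0.33, -0.43, -0.32, -0.26, -0.20 and -0.17, with a mean of -0.29 ± 0.10 and an adjusted p of 0.0558. Pcdh1 had a mean of -0.19 ± 0.14 (adjusted p = 0.16). For both, all 6 arrays were under 0 without the call being reached. Pcdh10 had probes that disagreed. One, MMC01D05, was at -0.24 ± 0.13 with all 6 arrays under 0 (adjusted p = 0.0963), and the other, PX-00634F14, was at 1.22 ± 0.74 (n = 5; adjusted p = 0.0628). Pcdhb14, of the clustered protocadherins, crossed 0, from -0.64 on array 1 to 0.63 on array 6. Pcdh18 was at 0.52 ± 0.43 (n = 5; adjusted p = 0.124).

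The start regions of both protocadherins past the threshold are shown because these genes lie on the same side with tight ratios. RefSeq (GRCm38.p6) gave a promoter, 250 bases before to 50 after the start, for 71 member genes and for 6 of the 9 called ones. The first listed start of each gene was used. The core that Sox proteins bind was searched on both strands as the word ACAAAG, as its variant ending in TG, spelled ACAATG, and as both words with T as the first letter, which are written TCAAAG with the common ending and TCAATG with the variant ending. Any of these was found in 44.5% of the promoters of all 27025 genes, in 36 of 71 member promoters (50.7%) and in 3 of the 6 called ones. Capitals mark the matches, and the sequences run 5′ to 3′ on the gene's strand. For the guidance system, Nrp1 and Unc5b, which lie furthest from 0 on either side, are shown beside them.
Pcdh9, chr14:93890630-93890929, minus strand: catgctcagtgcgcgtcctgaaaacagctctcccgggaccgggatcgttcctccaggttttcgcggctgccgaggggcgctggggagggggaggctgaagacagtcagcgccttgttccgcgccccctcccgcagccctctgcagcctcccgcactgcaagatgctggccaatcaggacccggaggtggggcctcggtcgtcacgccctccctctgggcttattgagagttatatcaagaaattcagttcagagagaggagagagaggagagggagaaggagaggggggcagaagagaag
Pcdh17, chr14:84443313-84443612, plus strand: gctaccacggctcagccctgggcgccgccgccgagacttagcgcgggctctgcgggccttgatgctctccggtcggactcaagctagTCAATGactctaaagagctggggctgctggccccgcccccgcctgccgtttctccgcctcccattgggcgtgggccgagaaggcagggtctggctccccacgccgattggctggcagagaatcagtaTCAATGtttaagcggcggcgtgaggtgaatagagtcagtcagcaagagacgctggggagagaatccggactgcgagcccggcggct
Nrp1, chr8:128358823-128359122, plus strand: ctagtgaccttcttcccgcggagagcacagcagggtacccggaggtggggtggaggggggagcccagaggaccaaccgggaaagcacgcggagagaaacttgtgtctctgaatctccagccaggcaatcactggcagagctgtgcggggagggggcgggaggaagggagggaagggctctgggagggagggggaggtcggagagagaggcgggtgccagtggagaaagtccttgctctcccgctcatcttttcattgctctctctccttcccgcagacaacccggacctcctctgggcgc
Unc5b, chr10:60831532-60831831, minus strand: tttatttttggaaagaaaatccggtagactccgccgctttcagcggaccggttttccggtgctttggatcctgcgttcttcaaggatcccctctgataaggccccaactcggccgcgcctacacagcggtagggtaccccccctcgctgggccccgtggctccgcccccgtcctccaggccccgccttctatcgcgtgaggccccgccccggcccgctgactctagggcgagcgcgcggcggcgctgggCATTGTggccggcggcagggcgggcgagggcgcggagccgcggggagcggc

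The Pcdh17 promoter held 2 matches, which begin 163 and 36 bases before the start, and the Unc5b promoter 1, which begins 1 base before it. Of the called promoters not shown, that of Cldnd1 held 2, which begin 231 and 224 bases before the start, and that of Ntng2 held 0. The Pcdh9 and Nrp1 promoters held 0 in this window. These letters are a description and say nothing of binding.

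Among the other cadherins, 0 of 9 tested probes passed, with 2 at an unadjusted limma p under 0.05. Their median was 0.22, and 8 of 9 means were above 0. Cdh2, the N-cadherin of mesenchyme, neurons and the pancreatic bud, had probes at 0.24 ± 0.16 (all 6 arrays above 0; adjusted p = 0.119) and -0.02 ± 0.15 (n = 6; adjusted p = 0.881). The 95% interval of the second ran from -0.21 to 0.16. Cdh23, a cadherin of sensory hair cells, was at 0.26, 0.17, 0.41, 0.16, 0.09 and 0.20 at one probe, all above 0, with an adjusted p of 0.108. Its other probe was at 0.54 ± 0.91, where array 3 stood at 2.30 and the rest at 0.61 or under. Cdh13, a cadherin without a transmembrane part, was at 0.81 ± 0.89 (n = 5), and Cdh24 at 0.58 ± 0.93. The neuronal cadherins Cdh8 and Cdh10 had means of 0.003 at the one tested Cdh8 probe, whose arrays spanned -2.02 to 1.86, and of 0.06 and 0.14 at the Cdh10 probes.

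The desmosome had a member past the threshold on each side. Dsc2, the desmocollin of simple epithelia and heart and the adhesive part of the desmosome, was at -0.66, -0.85, -0.19, -0.64, -0.83 and -0.71. Array 3 stood closest to 0, and the other arrays lay together. The mean was -0.65 ± 0.24 (SD, n = 6), 1.57-fold lower, with an adjusted p of 0.0302. Pkp2, a plakophilin that ties desmosomal cadherins to desmoplakin, was at 1.45, 0.79, 1.08, 1.45, 0.45 and 0.37 at probe ZA-00031K05. All 6 arrays were above 0, with arrays 5 and 6 the lowest. The mean was 0.93 ± 0.48 (SD, n = 6; adjusted p = 0.039), 1.91-fold higher.

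The other Pkp2 probes were on the same side without passing, at 0.38 ± 0.38 (all 6 arrays above 0; adjusted p = 0.145) and 0.62 ± 0.82 (n = 5; adjusted p = 0.254). Pkp3 was at 0.39 ± 0.34 with all 6 arrays above 0 (adjusted p = 0.119). Dsp, the desmoplakin that anchors keratin, was at -0.45 on array 1 and between 0.10 and 0.67 on the others (mean 0.26 ± 0.40; adjusted p = 0.297). Pkp4, an armadillo protein of adherens junctions and desmosomes, had probes at -0.24 ± 0.19, under 0 on all 6 arrays (adjusted p = 0.137), and 0.19 ± 0.68 (adjusted p = 0.645).

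**Figure D2:**
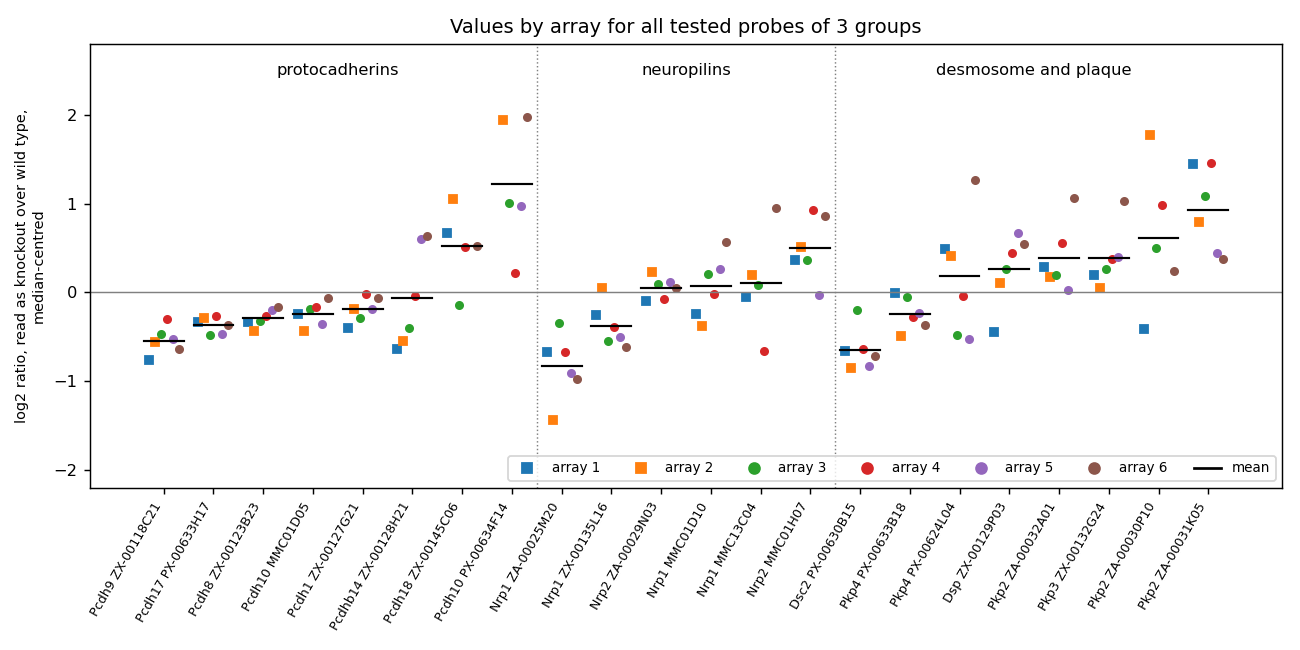
Log2 ratio (vertical axis, knockout over wild type, median-centred) on each array for every tested probe of the protocadherins, the neuropilins and the desmosome and plaque proteins, ordered by mean within each group. Squares are arrays 1 and 2, circles arrays 3 to 6, and the black lines are means. Pcdh9, Pcdh17, Pcdh8, Pcdh10 (MMC01D05) and Pcdh1 lie under 0 on every array, and so do Dsc2, 1 Pkp4 probe and the Nrp1 probe at -0.83.

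No probe of a claudin proper passed among 22 tested, with 7 at an unadjusted limma p under 0.05 (31.8%, against 27.6% of all probes). Their median was 0.005, with 11 means on each side of 0. Cldn3, Cldn6 and Cldn7 are claudins of simple and embryonic epithelia. Cldn3 had probes at -0.26 ± 0.22 with all 6 arrays under 0 (adjusted p = 0.138), -0.24 ± 0.30 (adjusted p = 0.233) and 0.12 ± 0.75 (adjusted p = 0.793). Cldn6 was at -0.21 ± 0.12, under 0 on all 6 arrays (adjusted p = 0.119), and its second probe at 0.04 ± 0.22.

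Cldn7 leaned the other way. Its probe ZA-00026M09 was at 0.81, 0.57, 0.18, 0.19, 0.33 and 0.04, above 0 on all arrays, with a mean of 0.35 ± 0.29 and an adjusted p of 0.11. Its other probes were at 0.85 ± 0.70 (n = 4; adjusted p = 0.146) and 0.02 ± 0.30 (n = 6; adjusted p = 0.928). With the array set as a term, the first probe passed, at 0.44 (adjusted p = 0.0466). Without centring it also passed, at 0.46 (adjusted p = 0.0499). With 1 array left out it passed in 0 fits (limma adjusted p = 0.143 to 0.2005). Its means were 0.69 on arrays 1 and 2 and 0.19 on arrays 3 to 6. The highest claudin mean, 1.36 ± 1.30 for Cldn34b2, had a negative value on array 1 and 3.56 on array 3, and its adjusted p was 0.119. The remaining claudins, Cldn2, Cldn10, Cldn11, Cldn13, Cldn14, Cldn15, Cldn22, Cldn23 and further Cldn34 genes, had means between -0.27 and 0.57.

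Cldnd1, a 4-pass membrane protein related to claudins, was past the threshold at 1 of 5 probes. That probe was at -0.36, -0.50, -0.44, -0.23, -0.45 and -0.39, all under 0 and within a narrow band. Its mean was -0.39 ± 0.10 (SD, n = 6; adjusted p = 0.0339), 1.31-fold lower. The other 4 probes had means of -0.39 ± 1.09, -0.22 ± 0.11, -0.20 ± 0.61 and -0.05 ± 0.10, so all 5 were under 0, though the last moved to 0.06 without centring. For the first of these, array 6 alone was at -2.58. Ocln, the tight junction protein occludin, was at 0.21 ± 0.28 (adjusted p = 0.27), and Tjp3, a scaffold, at -0.08 ± 0.27 (adjusted p = 0.672).

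Of 33 tested keratin probes for 21 genes, 1 passed, for Krt88. It was at -0.31, -0.95, -0.62, -0.39, -1.03 and -0.26 at probe ZX-00120M24, all under 0 but with a wide spread. The mean was -0.59 ± 0.33 (SD, n = 6), 1.51-fold lower, with an adjusted p of 0.0497. The other Krt88 probe was at 0.18 ± 0.38, with arrays on both sides of 0. Krt7, the keratin of simple ductal epithelium, was at -0.007 ± 0.38 (adjusted p = 0.979), from -0.48 on array 3 to 0.65 on array 2. The 95% interval of its mean was -0.35 to 0.34.

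Keratins of stratified epithelium and hair made up most of the family, with means from -0.35 for Krt76 to 0.57 for a Krt71 probe. Krt13 had all 6 arrays under 0 at one probe (-0.29 ± 0.11; adjusted p = 0.0565) and means of 0.24 and 0.22 at the others. Krt24 was above 0 on all arrays at one probe (0.55 ± 0.45; adjusted p = 0.0977) and at -0.09 at the other. Krt20, the keratin of intestinal epithelium, was at -0.23 and 0.37. Krt5 and Krt14, the pair of basal cells, lay at -0.26, -0.05, -0.07 and 0.24. The median keratin mean was 0.03.

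The connexins were Gja1, Gja5 and Gjb5, and 0 of the 3 passed, with 1 at an unadjusted limma p under 0.05. Gjb5 was at 0.42, 1.51, 0.45, 1.02 and 0.74 on arrays 1 to 5, all above 0, with an adjusted p of 0.0575. Gja1, the most widely expressed connexin, was at -0.09 ± 0.37, and Gja5, of arteries and heart, at 0.10 ± 0.48. Spint1 and Spint2 are membrane-bound inhibitors of the serine proteases of epithelia. Spint2 was at 0.08 ± 0.28 (adjusted p = 0.7), and Spint1 at -0.11 ± 1.19 on 4 arrays (adjusted p = 0.896). Spint4 was at 0.51 ± 0.46 (adjusted p = 0.115), with -0.13 on array 1 and 1.02 on array 4.

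**Figure D3:**
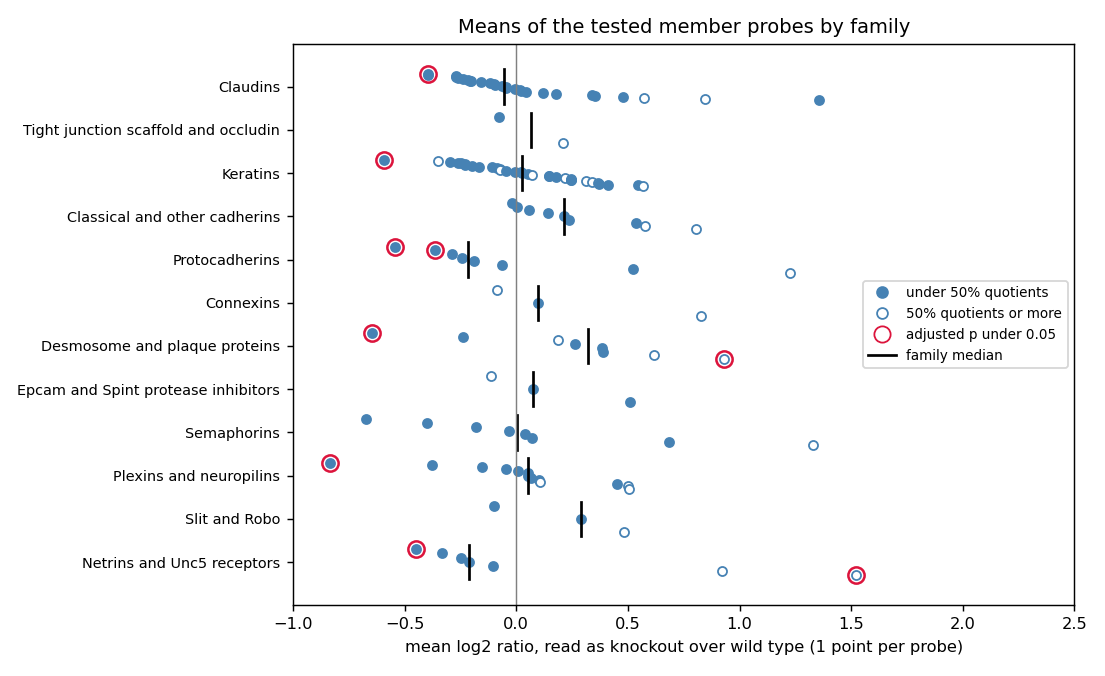
Mean log2 ratio (horizontal axis, knockout over wild type) of each of the 125 tested member probes, in rows by family. Open circles are probes with at least 50% of their ratios equal to quotients of whole numbers up to 20, red rings mark an adjusted p under 0.05, and black lines are family medians. The ringed probes under 0 are filled and those above 0, Pkp2 and Unc5b, are open.

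Of the semaphorin ligands, 0 of 8 tested probes passed, with 2 at an unadjusted limma p under 0.05. Sema3c, a secreted ligand for neuropilins, came nearest to the threshold, at -0.50, -0.77, -0.10, -0.56, -0.30 and -0.17. All 6 arrays were under 0, with a mean of -0.40 ± 0.25 and an adjusted p of 0.0732. Sema3f, a ligand of Nrp2, was at -0.67 ± 0.98 and -0.18 ± 0.22 at its 2 probes (adjusted p = 0.252 and 0.27). The larger mean rested on array 3, at -2.64. Sema3d was at 0.68 ± 0.73 (adjusted p = 0.153). Sema3a, the ligand that repels axons through Nrp1, was at 1.33 ± 2.07, with -0.45 and -0.77 on arrays 1 and 2 and 4.11 and 3.44 on arrays 3 and 6. Sema3b, Sema6d and Sema7a lay between -0.03 and 0.07.

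Of the semaphorin receptors, Nrp1 was past the threshold at 1 of 4 probes and had the lowest mean of all tested members. Nrp1 is the co-receptor for class 3 semaphorins and for vascular endothelial growth factor. Probe ZA-00025M20 was at -0.67, -1.44, -0.34, -0.67, -0.91 and -0.97. Array 2 was the furthest from 0 and array 3 the nearest. The mean was -0.83 ± 0.37 (SD, n = 6), 1.78-fold lower, with an adjusted p of 0.0344. A further Nrp1 probe was at -0.38 ± 0.25, under 0 on 5 of 6 arrays (adjusted p = 0.0787), and the remaining ones at 0.07 ± 0.35 and 0.11 ± 0.58 (n = 5). The mean over the 4 probes was -0.28, with an adjusted p of 0.0854.

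Nrp2, whose main ligand is Sema3f, was at 0.36, 0.51, 0.36, 0.93, -0.03 and 0.86 at probe MMC01H07 (adjusted p = 0.0778). Its second probe had a mean of 0.05 ± 0.12. The plexins had 0 of 7 probes past the threshold and 0 at an unadjusted limma p under 0.05. Plxnd1, a receptor of vessels, was at 0.05 ± 0.11 (95% interval -0.11 to 0.22) and 0.51 ± 0.67. Plxnb2 was at 0.008 ± 0.12 and had the smallest size of mean among the plexins. Plxna1, Plxna2 and Plxnc1 lay between -0.15 and 0.10, and Plxnb1 was at 0.45 ± 0.40 (n = 4; adjusted p = 0.185).

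Nrp1 is expressed in endothelium as well as in neurons, so the list of endothelial markers is given beside it. Of its 5 measured genes, Ramp2, a receptor partner for adrenomedullin, was past the threshold under 0 at 2 of 3 probes, at -0.75 ± 0.21 and -0.55 ± 0.27 (adjusted p = 0.0219 and 0.043). Its remaining probe was at 0.04. Emcn, Esam, Flt1 and Sox17 did not pass and lay between -0.28 and 0.47. Over the 10 probes the median was -0.008, and 5 means were above 0. Of 4 measured neuronal and neural crest genes, Tubb3 (0.39, 1 of 3 probes) and Elavl4 (0.90, 1 of 4) passed above 0 and Ncam1 (-0.44 and -0.38, both probes) under 0. The part of these cells in the Nrp1 value was not tested.

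The other marker lists are given for the whole set of members. Over all tested probes, 3.53% passed under 0 and 1.96% above, the shares to set beside these counts and those of the endothelial and neuronal lists. Liver markers stood lowest, with 8 of 13 probes past the threshold, all under 0, and a median of -0.92. The 8 probes are of 5 genes, Afp, Ambp, Fgb, Fgg and Vtn. Alb (-0.29) and both Ttr probes (-0.21 and -0.18) did not pass. Neither did 1 Afp probe at 0.006 and 1 Vtn probe at -0.06. Among 15 probes of pancreatic epithelium 3 passed, all under 0 and all of the acinar enzyme gene Cpa1. The median of this list was 0.05, with 8 means above 0 and 7 under 0. Nkx6-1 (0.39 and 0.73) and Ptf1a (0.20) lay above 0 and Sox9 (-0.48) under 0, without passing. Sparc (-0.31) was the only call among 9 mesenchymal probes. Of 5 leukocyte probes 1 passed on each side. Smooth muscle (4 probes), mesothelium (1) and stomach and intestine (7) had 0 past the limma threshold, with 1, 0 and 1 at an unadjusted p under 0.05. The part of any of these in the members' values was not tested.

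In the Slit and Robo pair, 0 of 3 tested probes passed, with 0 at an unadjusted limma p under 0.05. Slit3, a ligand, was at -0.10 ± 0.15 and 0.48 ± 1.31. Robo2, a receptor, was at -0.04, -0.83, 0.66, 0.30, 0.50 and 1.17, with both values under 0 on arrays 1 and 2 (mean 0.29 ± 0.68; adjusted p = 0.467).

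The netrin group had a member on each side of 0. Unc5b, a netrin receptor of vessels and axons, was at 1.71, 0.72, 2.08, 1.07 and 2.03 on arrays 1, 2, 3, 4 and 6 and missing on array 5. All 5 values were above 0, and the mean was 1.52 ± 0.60 (SD, n = 5), 2.87-fold higher, with an adjusted p of 0.0344. It was the highest mean among the tested members. Ntng2, a membrane-anchored netrin relative of neurons that binds other partners than Dcc and Unc5, was at -0.27, -0.66, -0.55, -0.17, -0.61 and -0.45. The mean was -0.45 ± 0.19 (SD, n = 6), 1.37-fold lower, with an adjusted p of 0.0417 and all arrays under 0.

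Ntng1, its relative, was at -0.05 on array 1 and 2.52 on array 6, with a mean of 0.92 ± 0.96 (adjusted p = 0.142). Unc5a crossed 0 (-0.10 ± 0.50). Unc50, which is no netrin receptor, was at -0.33 ± 0.21 and -0.21 ± 0.19 (adjusted p = 0.0842 and 0.178). Unc5cl, an intracellular relative of the Unc5 receptors, was at -0.25 ± 0.14 with all 6 arrays under 0 (adjusted p = 0.0963).

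The quality of the ratios differed between the calls on the 2 sides. Ratios of small whole-number intensities can only take certain values, and the share of a probe's ratios that were quotients of whole numbers up to 20 (within 6e-04 in log2) was used to describe this. The share was 80% for Unc5b and 50% for Pkp2, and 0% for each of the 7 called probes under 0. Of the 125 tested members, 27 (21.6%) had a share of at least 50%, against 18.6% of all tested probes. Of these 27, 23 had a mean above 0 (85.2%), as did 72.5% of all probes of that kind. The median SD between arrays was 0.67 for these members and 0.29 for the rest. Signal itself was not available for comparison, and its part in the results above 0 was not tested.

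Different probes of a gene often disagreed. Of 28 member genes with several tested probes, 14 had all means on the same side of 0 and 14 on both sides, 50% on the same side against 46.6% of 3965 such genes over the array. Of the 9 called genes, 4 had several probes, and 0 of these 4 passed at every probe. Cldnd1 and Pkp2 kept all probes on the called side, and Nrp1 and Krt88 did not. The largest distance was between the Pcdh10 probes, 1.47 in log2, followed by Nrp1 at 0.94. With probes of a gene averaged before the fit, 7 genes passed, 6 of them among the 9: Pcdh9, Dsc2, Unc5b, Pcdh17, Pkp2 and Ntng2. Except for Pkp2, these 6 have a single tested probe each, so averaging left their means unchanged. Of the 4 called genes with several probes, Pkp2 alone passed. Nrp1, Krt88 and Cldnd1 did not pass. Pcdh8, also with a single tested probe, joined at an unchanged mean of -0.29 and a limma adjusted p of 0.0491.

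**Figure D4:**
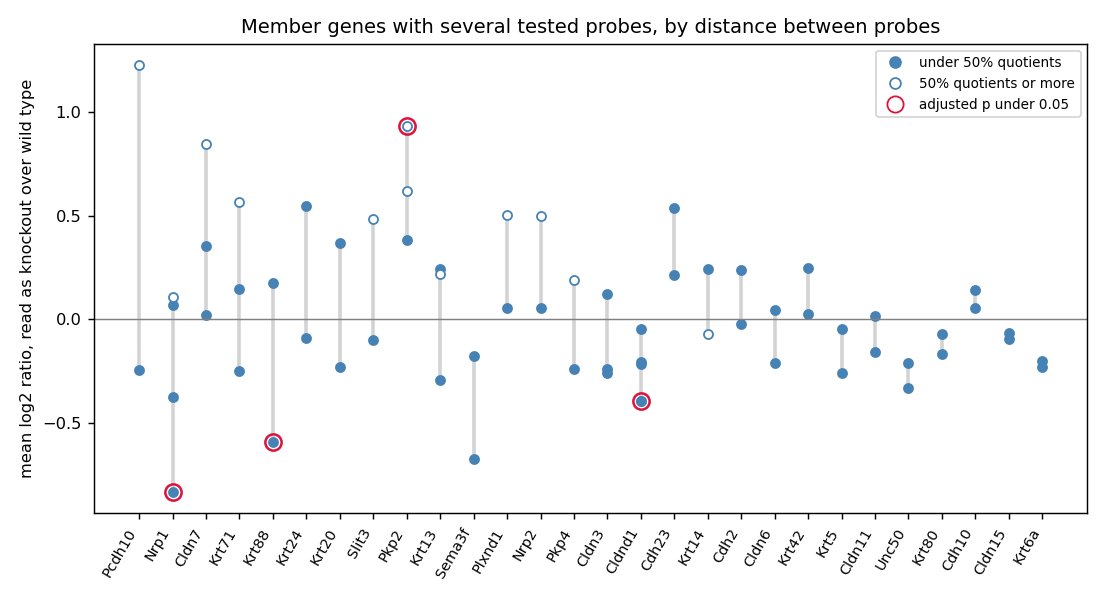
Mean log2 ratio (vertical axis, knockout over wild type) of each tested probe for the 28 member genes with several tested probes, ordered by the distance between their lowest and highest probe. Open circles have at least 50% quotients of small whole numbers and red rings an adjusted p under 0.05. Pcdh10 and Nrp1 span the widest ranges, and probes of 14 genes lie on both sides of 0.

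The arrays fell into the sets 1 and 2 and 3 to 6, which differ in the text of their labels. Over the member probes, Spearman's rho between arrays was 0.41 to 0.60 within a set and 0.06 to 0.49 between sets. The arrays share their probes and may share RNA pools, and these values are a description. Nrp1 had means of -1.05 and -0.72 in the sets, Unc5b 1.22 and 1.73, Pcdh9 -0.66 and -0.49, and Dsc2 -0.75 and -0.59. Over all 21230 probes in that comparison, 0 differed between sets past limma's adjusted threshold, so the 0 among the 125 tested members says nothing about them. Of the members, 18 differed at an unadjusted limma p under 0.05 (14.4%, against 15.4% of all probes). Spint4, Robo2, Cldn7, Dsp and Plxnd1 were among the 18, and so were both Nrp1 probes with means of -0.38 and 0.07.

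Neighbouring wells of the source plates, per the probe names, were also looked at. Next to Cldnd1 the wells before and after were at -0.20 and -0.51, next to Pcdh17 at -0.45 and -0.07, and after Unc5b at 0.99. Next to Nrp1 they were at -0.09 and -0.19, next to Pcdh9 at -0.08 and 0.06, and next to Dsc2 at 0.05 and 0.40. Next to Krt88 they were at -0.42 and 0.95, next to Pkp2 at -0.34 and 0.46, and next to Ntng2 at -0.09 and -0.11. The part of plate position in these results was not tested.

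Partners of these proteins were counted from lists of 102 names, of which 45 genes had 78 tested probes. Past the threshold were 2 probes above 0 (2.56%) and 7 under 0 (8.97%), beside 1.96% and 3.53% of all probes. The catenin and nectin side of the adherens junction held 4 of the 7. Ctnna1, the alpha-catenin that links cadherins to actin, passed at 2 of 4 probes, at -0.47 ± 0.18 and -0.35 ± 0.08 (adjusted p = 0.0362 and 0.0364), with the others at -0.23 and 0.37. Nectin3, an adhesion molecule of the same junction, passed at 2 of 5 probes, at -0.48 ± 0.17 and -0.45 ± 0.20 (adjusted p = 0.0344 and 0.043), and its others ran from -0.32 to 0.15. Ctnnb1, Nectin2 and Afdn did not pass. Afdn was at 0.63 and Nectin2 at 0.25, both above 0 on all 6 arrays (limma adjusted p = 0.0612 and 0.134). The Ctnnb1 probes were at 1.09 (n = 5) and -0.31 (n = 6). Of the 13 tested probes on this side of the junction, 8 had a mean under 0 and 5 above 0.

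Of 12 tight junction and polarity genes, Pard6g, a polarity adaptor, passed above 0 at 0.50 ± 0.21 (adjusted p = 0.0385), with its other probe at 0.40. Of 7 linkers of keratins and desmosomes, Pnn, a protein of nuclear speckles also reported at desmosomes, was at -0.43 ± 0.18 (adjusted p = 0.0411). Of 3 genes for proteases related to the Spint inhibitors, Prss8 (prostasin) was at -0.42 ± 0.20 and Hgfac at -0.40 ± 0.08 (adjusted p = 0.0476 and 0.0305), the second with its other probe at -0.18. Of 7 guidance signalling genes, Rac1 passed above 0 at 1 of 4 probes, at 0.42 ± 0.18 (adjusted p = 0.0435), and the others ran from -0.25 to 0.05. Of 11 transcription factors of epithelium and mesenchyme, 0 passed, with 8 of 19 probes at an unadjusted limma p under 0.05 (42.1%, against 27.6% of all probes).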

How the data were processed

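The authors' deposited table holds log2 ratios of 21888 probes on 6 two-channel spotted arrays. That the logarithm is to base 2 was read from the ceiling value of 16.61, log2 of 1e+05. Per the labels' protocols, RNA was amplified linearly and labelled indirectly. Scanner, background correction, normalization, dyes and genome build are named by no source used here. No intensities were used, so the signal behind a ratio is unknown, and precision is limited by the number of arrays.

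Ceiling values were treated as missing, the median of each array was subtracted, and an intercept-only model was fitted in limma (version 3.58.1; R 4.3.3) to the 21247 probes with values on at least 4 arrays, with a two-sided moderated test of the mean against 0. Adjusted p values are Benjamini-Hochberg values over all tested probes, with a threshold of 0.05. Tables and figures were made with Python 3.11.15, pandas 2.3.3 and matplotlib 3.10.9. Of the probes, 18388 had 1 symbol in the platform annotation, 66 several and 3434 none; 130 of 131 members matched RefSeq by Entrez ID. Probes of a gene were kept apart.

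Members, partner lists and marker lists were chosen with earlier results of these data known. The rule for named genes took 42 member probes: those past the threshold, the smallest p in each family with none past it, and all probes of the 34 listed genes. Other members, and the partner and marker genes named, were chosen after their values were seen. On simulated data for 21247 probes, log2 changes of 0.5, 1 and 2 were recovered in 23.9%, 70.1% and 81.8% of 67, 67 and 66 changed probes, with 4 calls among unchanged probes and 0 when nothing was changed. Noise was independent between arrays there. In the data each RNA kept its channel and the arrays may share pools. The simulated counts therefore do not cover a bias common to the arrays.

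Alternatives were to leave out the centring, to equalise scale or quantiles between arrays, to require values on 3 or on all 6 arrays, robust eBayes, array weights, a test against a log2 change of 0.2, the ceiling kept, removal of probes with mostly quotients of small whole numbers, the array set as a term, either set alone, each array left out, and means over the probes of a gene. Arrays 3 to 6 alone with values on at least 3 of them was added after seeing the data.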

Additional observations from a re-analysis of the deposited data

Results flagged for a closer look

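A single array stood apart for 2 of the 41 named probes examined this way, where chance gives about 1 in 20. The Sema3f probe MMC02H06 read -2.64 on array 3, while the other arrays ran from -0.50 to -0.01. The Dsc2 probe PX-00630B15, which was past the threshold under 0, read -0.19 on array 3, while the other arrays ran from -0.85 to -0.64. Dsc2 was also the only member past the threshold when array 3 was left out.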

How the results depend on the processing

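All measured arrays of each of the 9 called member probes lie on 1 side of 0, so leaving out, weighting or scaling arrays could not turn their sign. Leaving out the centring adds back medians of -0.007 to 0.198, less than the size of each called mean, so those signs were fixed too. Quantile normalization turned the sign of none of the 9 probes. Their adjusted p values did not keep their side of the threshold: Krt88 passed under 5 of 20 alternatives, and Dsc2, the one that passed most often, under 12 of 20. In the order all tested probes, members above 0, members under 0 and partners (1166, 2, 7 and 9 calls), array weights gave 2402, 4, 13 and 16 calls, the test against a log2 change of 0.2 gave 37, 0, 0 and 0, the array set as a term 695, 1, 4 and 3, arrays 3 to 6 alone 599, 1, 1 and 1, and arrays 1 and 2 alone 0, 0, 0 and 0. Arrays 3 to 6 with values on at least 3 of them, chosen after seeing the data, gave 13, 0, 0 and 0. Leaving out 1 array gave 10 to 1072, 0 to 1, 0 to 7 and 0 to 9. Scale normalization gave 1786 calls over all probes. Members above 0 numbered 6 without centring, 1 with values on all 6 arrays and 0 without probes of mostly quotients of small whole numbers, and members under 0 numbered 4 without centring. Fewer arrays leave fewer degrees of freedom; the cause of the other changes was not tested. Each array carries both RNAs and gives 1 ratio, so the test of the mean ratio against 0 already compares the RNAs within each array. There is 1 group of ratios, and no separate paired analysis was run.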
